A study of Mus musculus with 2 samples.

Results

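Nxph1, Kcnh8, Grin2b, Nalcn, Cntnap4, Hecw1, Dgkb and Hs3st5 are 8 long genes best known from neurons, and they were followed here through the nuclei of a gastrulating mouse embryo. They are 8 of the 32285 genes in the RNA table, and 85 of the 229480 accessibility peaks lie within 100 kb of their transcription starts. The genes were listed by symbol, and the list was drawn up from their RNA in these same nuclei, where they were high in epiblast. Their higher RNA in epiblast is therefore what chose them and is given as a description. Chromatin accessibility at their promoters and around them was not part of that choice.

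The study profiled single nuclei of pooled mouse embryos at embryonic day 7.0 with a multiome assay, in which each droplet yields both nuclear RNA and DNA cut by a transposase where chromatin is open. The 2 groups are labelled here as chromatin accessibility at E7.0 and nuclear RNA at E7.0, each a single library of the same nuclei with no treatment named. With 1 library per assay there was no replicate check and no test. Intervals (95%) reflect counting error and nothing else. The labels disagree with each other. Title, age and protocol say E7.0 embryo, whereas the other entries give goblet cells as cell type, RedMUC298trTg as strain, and as tissue the 8th section of small intestine for the RNA library and distal colon for the accessibility library. On the gut entries, 8 goblet and intestinal epithelium markers summed to 8.14 CPM (UMIs of a gene scaled to the UMI total of the class) in the epiblast-like nuclei. There 7 epiblast markers summed to 2739 CPM, of which Dnmt3b gave 1516. The class was named from these epiblast markers and the gut list gave no names, so this contrast is no check of the labels. Over the other classes the gut sum ran from 5.63 CPM to 66.8 in visceral endoderm and 82.8 in unnamed nuclei. The embryos were pooled, so no nucleus can be assigned to an embryo.

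After filtering, 12796 nuclei remained, with medians of 10471 UMIs and 17350 peak counts. They were clustered once on RNA without the 8 genes and once on accessibility without the 85 peaks. RNA of the 8 genes was read in the classes from accessibility, and accessibility in the classes from RNA, so that the main values of either readout come from classes its own clustering did not shape; the accessibility clusters were still named from RNA markers, and values given in RNA clusters are said to be so. A class was called by a name when marker genes led it, and the epiblast-like class held 3592 nuclei (28.1%) by accessibility and 3450 by RNA, with 3050 in both. Pou5f1, the pluripotency factor, stood at 206 CPM in the epiblast-like nuclei and 195 in streak, and Fgf5, a marker of post-implantation epiblast, at 198 CPM against 221 in streak and 389 in anterior streak, so these 2 did not set the class apart from its neighbours. Slc7a3 stood at 302 CPM against 99.4 in streak and 33.0 in anterior streak, L1td1 at 223 against 155 and 81.2, and the DNA methyltransferase gene Dnmt3b at 1516 against 1051 and 571. Utf1 and Sox2, at 216 and 77.4 CPM, were above both streak classes but below extraembryonic ectoderm, at 278 and 121. Over 12 neuron markers the summed level was 437.5 CPM in epiblast-like nuclei and 351.4 in streak, and in 3 of the 4 accessibility clusters of the class the mean log2 ratio of the neuron list exceeded that of the epiblast list. Of its 12 members 7 were higher in epiblast-like than in streak nuclei and 5 were lower. Among those higher, Elavl3 was at 131.8 CPM against 50.4 in streak, Syt1 at 74.5 against 39.8, Map2 at 75.4 against 58.2, Stmn2 at 32 against 18.2, Snap25 at 20.2 against 16.6, Tubb3 at 19.0 against 12.6 and Elavl4 at 11.9 against 9.12. Among those lower, Nefl was at 45.9 against 102, Nefm at 13.0 against 22.9 and Dcx at 5.91 against 10.4, and Rbfox3 was highest in mesoderm, at 44.1 against 7.48. Neurod1 was at 0.345 CPM (13 UMIs). Of the anterior ectoderm list Pou3f1 was at 274 CPM but 391 in extraembryonic ectoderm, Otx2 at 173 but 276 in anterior streak, and Zic2 at 119 but 172 in anterior streak, while Zic5, at 158, was above streak (123), anterior streak (116) and extraembryonic ectoderm (49.3). Hesx1, Six3 and Lhx5 were at 1.78, 3.23 and 0.954 CPM, and Sox1 at 0.133 (5 UMIs). The name "epiblast-like" thus rests on epiblast markers, with the neuron list not allowed to give names.

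The epiblast is the pluripotent layer from which the whole embryo proper descends. During gastrulation its cells pass through the primitive streak to become mesoderm and endoderm, and the front part that stays behind becomes ectoderm and nervous system. Many genes for synapses, ion channels and neuronal adhesion are unusually long, consist mostly of introns, and take polymerase hours to cross, so nuclear RNA from them is largely unspliced transcript. Nuclear reads inside introns therefore register transcription of such a gene, whether or not much protein is made.

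The 8 genes stand for several parts of neuronal signalling. Nxph1 encodes neurexophilin, a secreted ligand of alpha-neurexins, and Cntnap4 encodes a neurexin-like adhesion protein. Kcnh8 encodes a voltage-gated potassium channel of the ether-a-go-go family, Grin2b a subunit of the NMDA glutamate receptor, and Nalcn the sodium leak channel that sets resting excitability. Dgkb encodes a diacylglycerol kinase, Hecw1 a HECT ubiquitin ligase of the NEDD4 family, and Hs3st5 an enzyme that sulfates heparan sulfate chains. They share size. Spans of the RefSeq genes (GRCm38.p6) ran from 296.9 kb for Hecw1 to 754.1 kb for Dgkb, against a median of 23.98 kb over 16187 tested genes with a span, and 570 of those genes (3.52%) were at least as long as Hecw1. They do not share position. In mm10 the files place the starts of Nxph1 (ENSMUSG00000046178) at 8948614 to 8949676 and Grin2b (ENSMUSG00000030209) at 136173125 to 136173511 on chromosome 6, and each of the other 6 genes is on a chromosome of its own. Kcnh8 (ENSMUSG00000035580) starts at 52602709 on chromosome 17, Nalcn (ENSMUSG00000000197) at 123627144 on chromosome 14, and Cntnap4 (ENSMUSG00000031772) at 112570043 on chromosome 8. Hecw1 (ENSMUSG00000021301) starts at 14523226 on chromosome 13, Dgkb (ENSMUSG00000036095) at 37880174 to 37880705 on chromosome 12, and Hs3st5 (ENSMUSG00000044499) at 36506814 to 36507026 on chromosome 10.

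Promoter sequences from RefSeq GRCm38.p6 were held for 5 of the 8 genes, and are shown to let the start regions of these genes be compared with each other. Each runs 5′ to 3′ on the gene's strand from 250 bases before to 50 after a start that RefSeq gives, which for Nxph1 and Hs3st5 lies outside the range of starts in the files, and capitals mark the E-box letters CAGCTG.
Nxph1, chr6:8949769-8950068, plus strand: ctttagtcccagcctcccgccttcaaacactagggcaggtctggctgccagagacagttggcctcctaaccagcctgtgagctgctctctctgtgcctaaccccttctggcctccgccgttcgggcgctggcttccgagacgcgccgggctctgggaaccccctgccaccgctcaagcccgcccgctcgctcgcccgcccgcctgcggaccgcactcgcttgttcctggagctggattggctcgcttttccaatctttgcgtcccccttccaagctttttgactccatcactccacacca
Kcnh8, chr17:52602459-52602758, plus strand: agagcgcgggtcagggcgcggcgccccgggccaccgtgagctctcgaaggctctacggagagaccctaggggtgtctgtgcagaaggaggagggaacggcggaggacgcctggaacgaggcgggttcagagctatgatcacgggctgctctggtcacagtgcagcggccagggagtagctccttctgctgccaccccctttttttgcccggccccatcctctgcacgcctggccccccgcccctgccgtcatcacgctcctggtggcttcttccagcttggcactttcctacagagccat
Hs3st5, chr10:36506557-36506856, plus strand: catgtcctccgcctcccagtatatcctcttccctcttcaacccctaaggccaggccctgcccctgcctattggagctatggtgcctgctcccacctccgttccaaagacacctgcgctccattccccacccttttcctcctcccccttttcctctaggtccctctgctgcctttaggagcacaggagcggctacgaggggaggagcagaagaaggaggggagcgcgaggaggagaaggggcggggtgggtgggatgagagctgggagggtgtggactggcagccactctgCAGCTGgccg
Nalcn, chr14:123627095-123627394, minus strand: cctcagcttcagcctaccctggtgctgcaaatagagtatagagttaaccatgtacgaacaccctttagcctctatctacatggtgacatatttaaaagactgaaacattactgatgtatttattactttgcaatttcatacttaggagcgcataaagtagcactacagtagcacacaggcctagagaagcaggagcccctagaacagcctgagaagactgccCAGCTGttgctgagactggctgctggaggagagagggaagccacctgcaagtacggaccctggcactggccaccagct
Dgkb, chr12:37879924-37880223, plus strand: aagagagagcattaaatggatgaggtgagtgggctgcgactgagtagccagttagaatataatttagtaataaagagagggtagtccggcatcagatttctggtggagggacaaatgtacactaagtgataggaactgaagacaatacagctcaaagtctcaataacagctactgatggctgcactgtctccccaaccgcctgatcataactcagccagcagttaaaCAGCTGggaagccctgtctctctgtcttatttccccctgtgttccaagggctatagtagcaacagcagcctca
The 5 promoters were of different kinds. Nxph1 and Kcnh8 held 21 CG dinucleotides each and were 64.0% and 66.0% G or C, and Hs3st5 held 9 CG at 63.0%. Nalcn and Dgkb held 3 CG each at 48.3% and 46.3%, where the median promoter of 32544 held 7 (quartiles 3 and 20). CAGCTG, which reads the same on both strands, was found in Nalcn, Dgkb and Hs3st5, at -28, -23 and 40 bases from the start, and in 16.37% of all these promoters. On either strand none of the 5 held the octamer core ATGCAAA (4.652% of promoters), the SOX letters CATTGTT (3.715%), either arm of the neuronal silencer element RE1 (TCAGCAC, 5.113%, and GGACAGC, 6.594%), or TATAAA (13.57%). Peaks of the files covered all 300 bases in Nxph1, Kcnh8 and Hs3st5, 195 in Nalcn and 58 in Dgkb. Promoter accessibility further on is that of peaks at the starts given in the files, in a wider window, so it is not a measure of these 300 bases; the larger Nxph1 promoter peak, chr6:8948124-8949090, lies wholly outside them.

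RNA of the 8 genes added up to 559.9 CPM (552.3 to 567.5) in the epiblast-like nuclei. It summed to 134.7 CPM in primitive streak nuclei, 71.3 in anterior streak, node and definitive endoderm, 16.8 in embryonic mesoderm, and 14.4 to 16.1 in haemato-endothelial progenitors, extraembryonic ectoderm, and ectoplacental cone with giant cells. Streak and anterior streak thus lay between epiblast and these other classes. Between 75.6% (Dgkb) and 87.0% (Nxph1) of each gene's UMIs in kept nuclei came from the epiblast-like class.

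Among the ligand and adhesion genes, Nxph1 stood at 38.2 CPM (36.3 to 40.3; 1442 UMIs) in epiblast-like nuclei (21.4 without the 1% of nuclei with most of its UMIs), 4.41 (3.36 to 5.69) in streak, 0.714 (7 UMIs) in anterior streak, 0.731 (10 UMIs) in mesoderm and 0.964 (17 UMIs) in extraembryonic ectoderm. The last 3 levels overlapped in their intervals, and the ectoplacental cone class held no UMI of Nxph1, which allows up to 0.873 CPM. Cntnap4 was at 21.6 CPM (20.1 to 23.1) in epiblast-like nuclei (14.0 without such nuclei) and, with overlapping intervals, at 4.63 (3.55 to 5.94) in streak and 4.18 (3.0 to 5.67) in anterior streak. In mesoderm and extraembryonic ectoderm it rested on 6 UMIs each.

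Among the channel genes, Kcnh8 stood at 130.2 CPM (127 to 134) in epiblast-like nuclei. It was the only 1 of the 8 genes that was higher in anterior streak, at 22.0 CPM (19.2 to 25.2), than in streak, at 13.4 (11.5 to 15.5), with intervals that did not overlap; in mesoderm it was at 2.85. Grin2b ran the other way, from 53.3 CPM (51.0 to 55.7) in epiblast-like nuclei to 16.3 (14.2 to 18.6) in streak and 2.24 (1.41 to 3.4) in anterior streak, a level its interval shared with mesoderm at 1.97. Nalcn fell in between, at 45.6 CPM (43.5 to 47.8), 9.04 (7.50 to 10.8) in streak, 5.51 (4.14 to 7.19) in anterior streak and 1.24 in mesoderm.

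Among the enzymes, Dgkb kept the most RNA in streak relative to epiblast. It was at 107.6 CPM (104 to 111) in epiblast-like nuclei, 49.0 (45.3 to 52.9) in streak, 11.2 (9.22 to 13.5) in anterior streak and 5.55 (4.38 to 6.95) in mesoderm, 4 levels without overlap. Hs3st5 was at 126.1 CPM (123 to 130) in epiblast-like nuclei, and its streak and anterior streak levels of 25.1 (22.5 to 27.9) and 20.2 (17.5 to 23.2) overlapped. Its mesoderm level of 2.34 (1.60 to 3.30) was under that of extraembryonic ectoderm at 5.62 (4.56 to 6.84). Hecw1 went from 37.3 CPM (35.4 to 39.3) to 12.8 (10.9 to 14.8) in streak, 5.2 (3.87 to 6.84) in anterior streak, 1.68 in mesoderm and 0.738 (13 UMIs) in extraembryonic ectoderm. Levels in anterior streak depended on how the class was drawn. In the 661 anterior streak nuclei named from RNA the 8 genes summed to 110.8 CPM in place of 71.3, with Dgkb at 28.2 (24.4 to 32.4), Nalcn at 9.58, Cntnap4 at 6.86 and Grin2b at 4.43 (3.01 to 6.29). Grin2b there no longer overlapped mesoderm, at 1.59 (1.04 to 2.33), and Kcnh8 in mesoderm was at 1.29 in place of 2.85. Kcnh8 was again higher in anterior streak, at 28.2 (24.4 to 32.4), than in streak, at 17.5 (15.3 to 19.8).

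**Figure D1:**
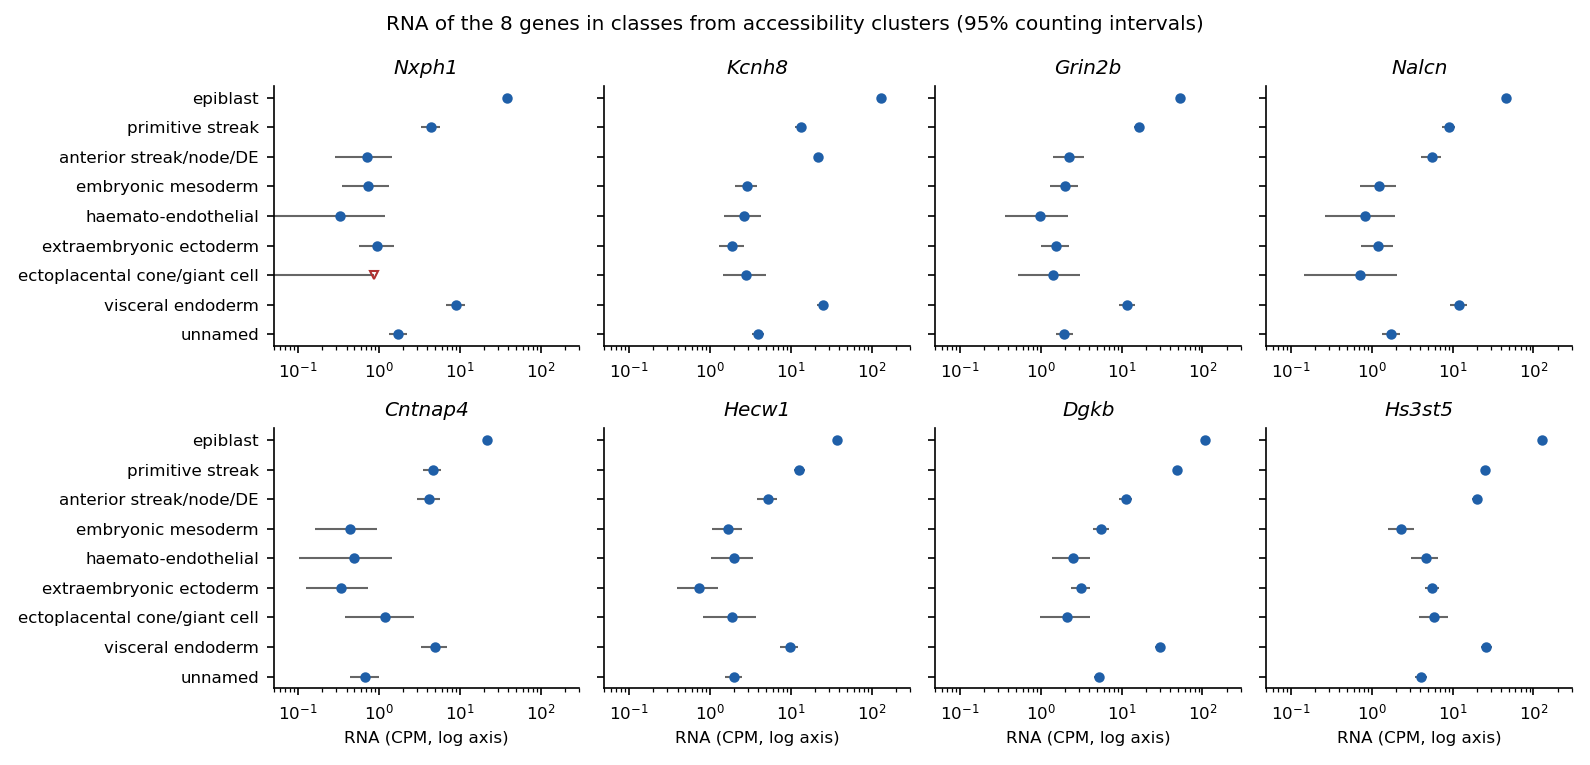
RNA of the 8 genes (CPM, log axis) in 9 classes taken from accessibility clusters, with 95% counting intervals as lines; the parietal endoderm class of 26 nuclei is not drawn, and an open triangle is the upper limit where no UMI was seen. Epiblast was highest for all 8 genes, streak or anterior streak next among the embryonic classes, and the visceral endoderm class shown is a single cluster of low accessibility depth.

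The visceral endoderm class from accessibility was a single cluster of 437 nuclei whose median of 4086 peak counts was the lowest of all named classes, and the 8 genes summed to 128.8 CPM in it. The epiblast-like class also holds a cluster of low accessibility depth, with 1035 nuclei, a median of 4179 peak counts and a sum of 409.6 CPM. In the 1612 visceral endoderm nuclei named from RNA the sum was 6.51 CPM, with single genes at 0.28 to 1.48 CPM. An unnamed cluster of low depth (633 nuclei, median 1778 UMIs) held 168.5 CPM. Another unnamed accessibility cluster (166 nuclei) held 180.5 CPM, at a median of 6391 UMIs against 10471 over all kept nuclei. An unnamed RNA cluster of high depth (median 25968 UMIs) held 300.2 CPM. The part of mixed or misplaced nuclei in these sums was not tested. The RNA-defined visceral endoderm serves as the comparison for shares of nuclei with a UMI, and free RNA itself was not measured: after thinning each nucleus to 3000 UMIs, 0.0629 to 0.755% of its nuclei held a UMI of a given member. In the visceral endoderm class from accessibility these shares were higher, from 1.38% (Cntnap4) to 4.96% (Dgkb). The epiblast-like nuclei set beside them are those from accessibility, so the RNA-defined comparison is not over like classes. In 3377 of these epiblast-like nuclei thinned alike, the share was 25.3% for Hs3st5, 25.2% for Kcnh8, 22.1% for Dgkb, 12.6% for Grin2b, 11% for Nalcn, 9.74% for Hecw1, 7.67% for Nxph1 and 5.24% for Cntnap4.

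Set against all other nuclei, the epiblast-like fold was 19.2 (16.6 to 22.3) for Nxph1, 17.6 (16.3 to 19.0) for Kcnh8, 13.6 (12.1 to 15.3) for Nalcn and 13.2 (12.3 to 14.1) for Hs3st5. It was 13.0 (11.1 to 15.4) for Cntnap4, 12.7 (11.5 to 14.1) for Grin2b, 9.77 (8.75 to 10.9) for Hecw1 and 8.89 (8.35 to 9.47) for Dgkb. With doublet calls kept, the folds were lower, at 9.70 for Nxph1, 8.95 for Kcnh8, 8.34 for Nalcn, 8.17 for Hs3st5, 8.62 for Cntnap4 and 8.44 for Grin2b, each a move of over 1.5 times, and at clustering resolution 0.5 that of Dgkb was 13.5. All 8 were at least 2-fold higher, as were 8.67% of the 17686 genes with at least 50 UMIs, and 0.271% of genes had a fold at least as large as that of Dgkb; since this contrast chose the genes, nothing is read from these counts. Taken class by class, the 8 genes were all at least 2-fold higher than in streak (2.88% of all genes), anterior streak (6.35%), mesoderm (11.0%) and extraembryonic ectoderm (20.7%). These classes are parts of the contrast that chose the genes, so nothing is read from these counts either. In the RNA classes Dgkb was at 108.2 CPM in epiblast-like and 58.0 in streak nuclei, a gap under 2-fold.

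A gene's span sets how much of it can be sampled as nuclear RNA, so levels were also divided by span. Per 100 kb of gene the epiblast-like levels were 38.5 CPM for Hs3st5, 34.6 for Kcnh8, 14.3 for Dgkb, 13.0 for Nalcn, 12.7 for Nxph1, 12.6 for Hecw1, 11.6 for Grin2b and 6.90 for Cntnap4. Dgkb, the longest, dropped from near Hs3st5 and Kcnh8 to the level of the middle genes. In CPM all 8 genes lay above the median gene in epiblast-like nuclei, from percentile 55.9 (Cntnap4) to 88.4 (Kcnh8). Per length all 8 lay below it, from percentile 19.3 to 42.0, so their place among genes depends on that choice of scale, while the fold between classes does not.

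Long genes as a class were more often high in epiblast-like nuclei. Without the 8, the share at least 2-fold higher was 5.99% under 10 kb, 6.51% from 10 to 30 kb, 8.60% from 30 to 100 kb, 13.7% from 100 to 250 kb, and 27.0% (194 of 719) from 250 kb up. The share at least 2-fold lower was 12.7, 12, 13.2, 16.3 and 13.4% in the same order, so it did not climb with span in the same way.

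**Figure D2:**
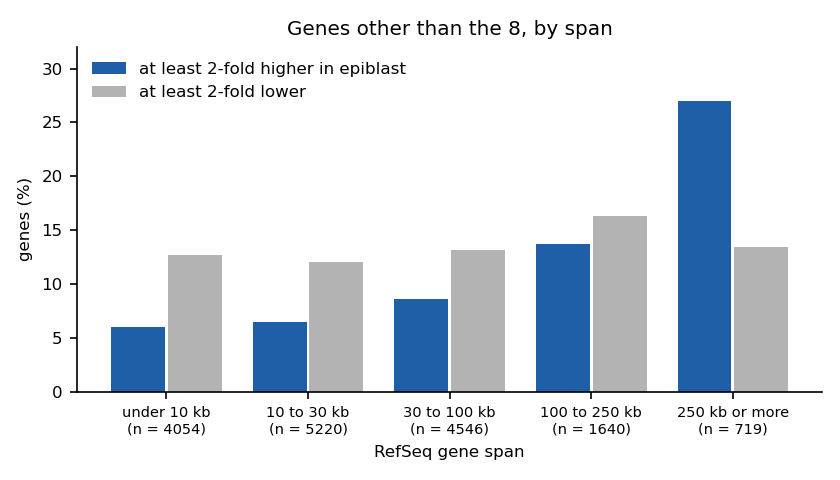
Share of genes (%) at least 2-fold higher (blue) or lower (grey) in epiblast-like than in all other nuclei, by RefSeq gene span, with the 8 genes left out and the number of genes under each pair of bars. The share higher goes from 5.99% under 10 kb to 27.0% at 250 kb or more, and the share lower stays between 12 and 16.3%.

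The epiblast-like nuclei were not uniform. In the 3 RNA clusters of the class, with 1560, 1191 and 699 nuclei, the 8 genes summed to 786.8, 371.5 and 159.3 CPM. Depth fell in the same order, with medians of 11920.5, 9151 and 6846 UMIs and of 23633.5, 16828 and 12777 peak counts. The part of depth in these sums was not tested. The cluster of 1560 nuclei, which holds 15597 member UMIs, is the one whose mean log2 ratio was higher for the neuron list (1.14) than for the epiblast list (1.05), and it takes the name neuron when that list may give names. Nxph1 was at 56.8 CPM in the largest and 8.79 in the smallest, a fold of 6.46 (4.75 to 9.01), and Nalcn at 61.7 and 9.42, a fold of 6.55 (4.87 to 9.03). The fold was 5.34 for Kcnh8, 4.87 for Grin2b, 4.60 for Dgkb, 4.57 for Hs3st5, 4.18 for Hecw1 and 4.08 for Cntnap4. The largest and smallest of these clusters are those with the highest and lowest sum of the 8 genes, and the clusters were built from RNA, so direction and size follow largely from that choice. All 8 folds were at least 2, where 7.83% of all genes reached that, and nothing is read from this count. Between the accessibility clusters with the highest and lowest sums, 714.3 and 382.5 CPM, the folds were smaller, from 1.48 (Cntnap4) to 2.38 (Dgkb). Of the 8 genes 3 reached 2-fold (1.53% of all genes did). This pair was picked on the same sum, and nothing is read from the count. The pair also differed in depth, at medians of 12933 and 8439 UMIs and 28445 and 15327 peak counts.

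**Figure D3:**
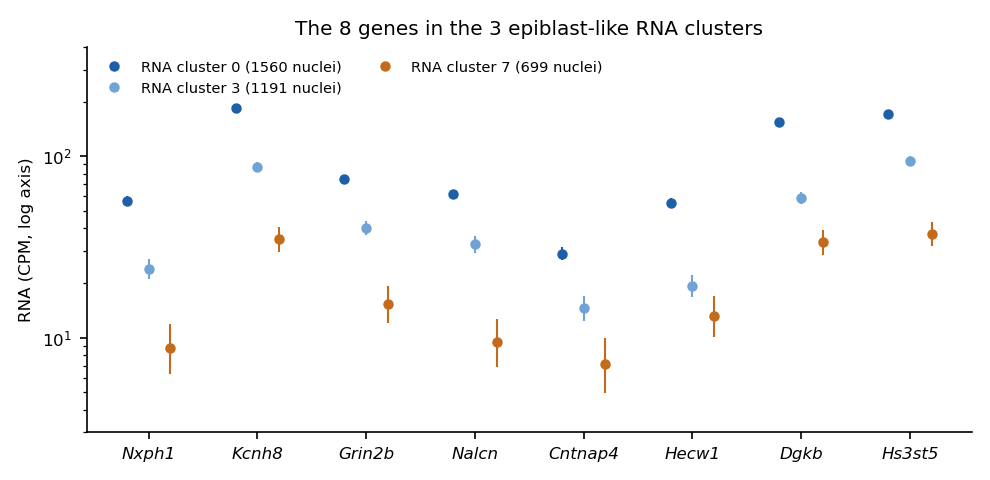
RNA (CPM, log axis) of each of the 8 genes in the 3 epiblast-like RNA clusters, with 95% counting intervals as lines. For all 8 genes cluster 0 is highest, cluster 3 intermediate and cluster 7 lowest, with sums of 786.8, 371.5 and 159.3 CPM. Median depth falls in the same order, at 11920.5, 9151 and 6846 UMIs.

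Within an accessibility cluster, the genes were seen together in a nucleus slightly more often than their single shares would give. For the 28 pairs in thinned nuclei, the median ratio of observed to expected nuclei was 1.23 (range 1.02 to 1.65), and the interval lay above 1 for 13 pairs. No like ratio was computed for pairs of other genes, so these counts of pairs say nothing particular to the 8 genes. With nuclei taken from the RNA classes the median was 1.11, 25 of 28 pairs were above 1 (lowest 0.953), and 3 had an interval above 1; here both the nuclei and the clusters differ. Without thinning the median was 1.22, and the interval lay above 1 for all 28 pairs. Nuclei of more depth there hold any 2 genes together more often, so nothing is read from that count. Over the whole class, without regard to cluster, the median was 1.32 with accessibility classes and 1.35 with RNA classes. At this depth 34.4% of epiblast-like nuclei held none of the 8 genes, 31.6% held 1, 20.2% held 2, and 4 nuclei held 6.

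Promoter accessibility was higher in epiblast-like nuclei for each of the 7 genes with a promoter peak, by 1.78 to 4.77-fold. The 7 had a peak in the promoter window of 1000 bp before to 100 bp after the start, and Hecw1 had none there. Its nearest peak, at chr13:14522141-14522998, is centred 0.7 kb inside the gene, beyond that window, and gave a fold of 2.36. As the windows were drawn, this peak lies at a promoter of another gene. In epiblast-like nuclei Kcnh8 promoter peaks held 19.4 CPM (here peak counts scaled to all peak counts of the class), against 4.06 in all other nuclei, a fold of 4.77 (4.19 to 5.45). The fold was 3.29 (2.82 to 3.85) for Cntnap4, 2.77 (2.43 to 3.15) for Dgkb, 2.08 (1.89 to 2.29) for Nalcn, 1.84 (1.68 to 2.01) for Nxph1, 1.82 (1.69 to 1.97) for Hs3st5 and 1.78 (1.59 to 1.99) for Grin2b. So 4 of 7 promoters were at least 2-fold more accessible, against 4.24% of 21415 promoters and 28.1% (89 of 317) of the promoters of other genes whose RNA was at least 4-fold higher. The RNA folds of the 7 genes themselves began at 8.89, above that 4-fold mark, so the 2 sets are not matched in RNA.

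Class by class, RNA folds are set beside promoter folds as values only: the genes were chosen for their RNA and not for their promoters, so a larger fold in RNA is partly what the choice gives, and no like gap was computed for other genes. The RNA folds are over accessibility classes and the promoter folds over RNA classes, so the 2 are not over the same nuclei. Over streak, RNA of these 7 genes was 2.19 to 9.73-fold higher in epiblast-like nuclei (median 5.02) and promoter accessibility 1.01 to 1.98-fold (median 1.16). For 3 promoters the interval included 1, and 0 of 7 reached 2-fold, a count that says nothing about these genes since 0.665% of all promoters did. At the Grin2b promoter the levels were 16.1 and 16 CPM, while Grin2b RNA was 53.3 and 16.3 CPM. At the Nxph1 promoter they were 25.6 and 24.0 CPM, while Nxph1 RNA was 38.2 and 4.41 CPM. Kcnh8 had the widest promoter difference from streak, at 19.4 and 9.79 CPM. Against anterior streak RNA was 5.16 to 53.6-fold and promoters 1.08 to 1.94-fold higher, with 0 of 7 promoters at 2-fold, where 1.91% of all promoters were. In the RNA classes used for the promoters, RNA of all 7 genes lay closer between the 2 classes. There Dgkb was at 108.2 CPM in epiblast-like and 28.2 in anterior streak nuclei, Grin2b at 55.9 and 4.43, and Cntnap4 at 21.6 and 6.86.

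Against mesoderm, RNA folds were 19.4 to 53.9 (median 45.7) and promoter folds 1.29 to 6.76 (median 2.11), with 4 of 7 promoters at least 2-fold higher against 4.5% of all promoters. Nxph1, Hs3st5 and Grin2b kept accessible promoters in mesoderm although little RNA was found. Nxph1 RNA differed 52.3-fold (28.4 to 109) on 10 mesoderm UMIs and its promoter 1.31-fold (1.15 to 1.5), Hs3st5 53.9 and 1.66-fold, and Grin2b 27.0 and 1.29-fold. The Kcnh8 promoter was different: it went from 19.4 to 2.87 CPM in mesoderm, a fold of 6.76 (4.96 to 9.43) beside 45.7-fold in RNA over accessibility classes. In the RNA classes used for the promoter, Kcnh8 RNA was at 134.8 CPM in epiblast-like nuclei and 1.29 in mesoderm.

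In extraembryonic ectoderm and visceral endoderm promoter levels lay below those of embryonic mesoderm for all 7 genes, although for Nalcn in extraembryonic ectoderm, at 9.35 CPM (7.62 to 11.4), the intervals overlapped. The promoters of Nalcn, Kcnh8, Hs3st5 and Nxph1 were at 11.0, 4.03, 18.5 and 16.8 CPM in extraembryonic mesoderm and at 9.96, 2.87, 19.8 and 19.5 in embryonic mesoderm, and those of Cntnap4, Dgkb and Grin2b at 3.13, 4.03 and 10.2 against 4.39, 6.84 and 12.5. Against extraembryonic ectoderm 7 of 7 were at least 2-fold higher in epiblast-like nuclei, where 19.3% of all promoters were. Dgkb had a fold of 34.5 (26.4 to 45.8) in RNA over accessibility classes. At its promoter, over RNA classes, it was 34.2 (14.6 to 106), on 9 peak counts in extraembryonic ectoderm. Dgkb RNA in those RNA classes was at 108.2 CPM in epiblast-like nuclei and 2.36 in extraembryonic ectoderm, so the closeness of the 2 folds depends on the classes. Among promoter folds Kcnh8 followed with 16.5 (9.59 to 31.2) and Cntnap4 with 13.7 (7.14 to 30.2), while Nalcn and Hs3st5 differed by 2.48 and 2.54. In visceral endoderm named from RNA the Dgkb, Kcnh8 and Cntnap4 promoters were at 0.679, 0.750 and 0.893 CPM, and that of Hs3st5 at 7.29.

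**Figure D4:**
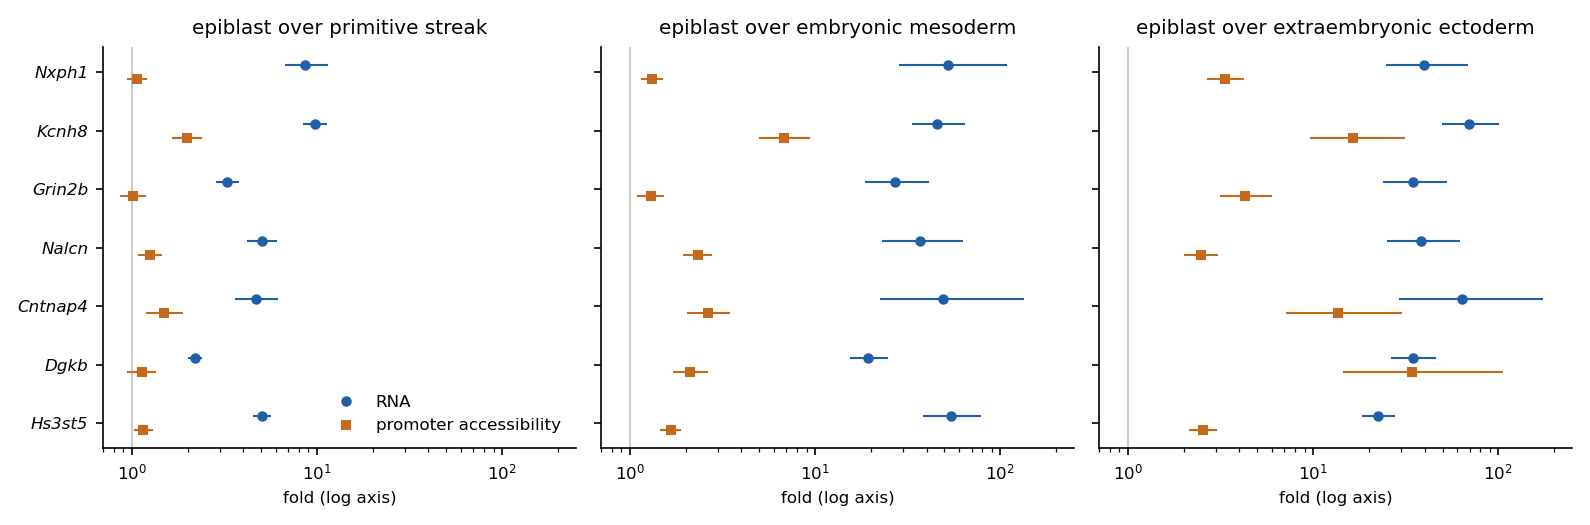
Fold (log axis) of epiblast-like nuclei over primitive streak, embryonic mesoderm and extraembryonic ectoderm for the 7 genes with a promoter peak, RNA as blue circles and promoter accessibility as orange squares, with 95% counting intervals as lines. RNA folds are over accessibility classes and promoter folds over RNA classes, so the nuclei differ. Over streak all 7 promoter folds lie under 2 (median 1.16) with RNA folds at a median of 5.02. Over extraembryonic ectoderm the Dgkb points are at 34.5 and 34.2, the promoter point with an interval of 14.6 to 106.

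Inside the epiblast-like class, between the RNA clusters picked for most and least RNA of the 8 genes, promoter folds were 0.957 for Nxph1, 1.06 for Hs3st5, 1.08 for Grin2b, 1.10 for Dgkb, 1.12 for Cntnap4, 1.20 for Kcnh8 and 1.53 (1.18 to 2.0) for Nalcn. For 6 of 7 the interval included 1. None of the 7 reached 2-fold, and with 0.23% of all promoters doing so, nothing is read from that. The RNA folds of 4.08 to 6.55 between these clusters follow from how the pair was picked and are no measure to set the promoters against.

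Away from promoters, the surroundings of these genes held many peaks that were more open in epiblast-like nuclei. Of the 85 peaks 72 were distal, meaning at no promoter of any gene, and 52 of those had at least 100 estimated fragments. At least 2-fold higher were 26 of the 52 (50%), against 11.3% of 160295 distal peaks of the series, and at least 4-fold higher were 9, against 1.53%. Only 3 were at least 2-fold lower, against 23.7%. The median distal fold was 1.99 around these genes and 1.02 over the series. No like share was computed for peaks near other long genes or other genes high in epiblast RNA. The fragment limit counts all kept nuclei, so a peak could pass it through the epiblast-like nuclei. Distal also takes in peaks close to a start, such as 1 lying 1.5 kb before that of Kcnh8 (fold 3.29). Each gene had from 2 (Nxph1, of 9) to 4 (Kcnh8 of 7, Nalcn of 8, Dgkb of 5) distal peaks at 2-fold or more.

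The widest differences were inside Hecw1, the gene with no peak in the promoter window as drawn. The peak at chr13:14426627-14427431, 96.2 kb into the gene, was at 4.01 CPM in epiblast-like nuclei and 0.389 in others, a fold of 10.3 (7.12 to 15.2), with 0.875 in streak and 0.207 in mesoderm. A second Hecw1 peak at chr13:14439271-14440121, 83.5 kb in, gave 8.50 (5.68 to 13.0). Around Grin2b, the peak at chr6:136149795-136150801, 23.2 kb into the gene, went from 8.60 CPM in epiblast-like nuclei to 4.06 in streak, 1.81 in anterior streak and 0.760 in mesoderm, a fold over other nuclei of 6.89 (5.50 to 8.69). The Grin2b promoter was at 16.1 CPM in epiblast-like and 16 in streak nuclei. The peak, unlike the promoter, was named for its high fold over other nuclei, streak among them. Its difference from streak therefore partly follows from that choice. A Grin2b peak 67.2 kb before the start, chr6:136240263-136241110, gave 6.25 (4.86 to 8.10).

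Kcnh8 and Hs3st5 had 2 such peaks each, and 1 of each pair was also open in extraembryonic ectoderm. At Kcnh8, chr17:52607233-52608102, 5.0 kb into the gene, gave a fold of 6.73 (4.49 to 10.3). The Kcnh8 peak at chr17:52642520-52643424, 40.3 kb in, was at 3.83 CPM in epiblast-like nuclei and 2.91 in extraembryonic ectoderm, with 0.557 in streak. At Hs3st5, chr10:36484516-36485392, 21.9 kb before the start, gave 6.85 (4.92 to 9.67). The Hs3st5 peak at chr10:36547527-36548431, 41.2 kb in, was at 14.5 CPM in epiblast-like nuclei, 7.85 in extraembryonic ectoderm, 5.97 in streak and 0.933 in mesoderm. RNA of both genes was low in extraembryonic ectoderm, at 1.87 CPM for Kcnh8 and 5.62 for Hs3st5 over accessibility classes. Over the RNA classes used for the peaks it was at 1.07 and 3.77 CPM, so accessibility of these 2 peaks and RNA did not run together there.

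Nalcn had a peak 18.4 kb before its start, chr14:123645096-123646084, with a fold of 5.71 (3.73 to 8.90), and another 73.9 kb in, chr14:123552772-123553665, with 2.91 (2.24 to 3.79) at 3.79 CPM in epiblast-like and 3.94 in streak nuclei. Around Nxph1, Cntnap4 and Dgkb no distal peak with enough fragments reached 4-fold. The highest there were 2.69 for Nxph1 at chr6:8875281-8876136 (4.61 CPM in both epiblast-like and streak nuclei), 2.83 for Cntnap4 at chr8:112546158-112547028 and 3.31 for Dgkb at chr12:37875884-37876708. The next were 2.42 for Nxph1 30.8 kb into the gene, 2.30 for Cntnap4 2.1 kb before its start and 2.21 for Dgkb 35.7 kb before its start. In the opposite direction, a Nalcn peak 95.7 kb in and an Hs3st5 peak 48.7 kb in both had a fold of 0.140, and a Hecw1 peak at -80.2 kb, before the start, chr13:14602962-14603841, had 0.495 (0.315 to 0.752). No link between a peak and a gene was tested, and a peak near a gene may belong to another.

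**Figure D5:**
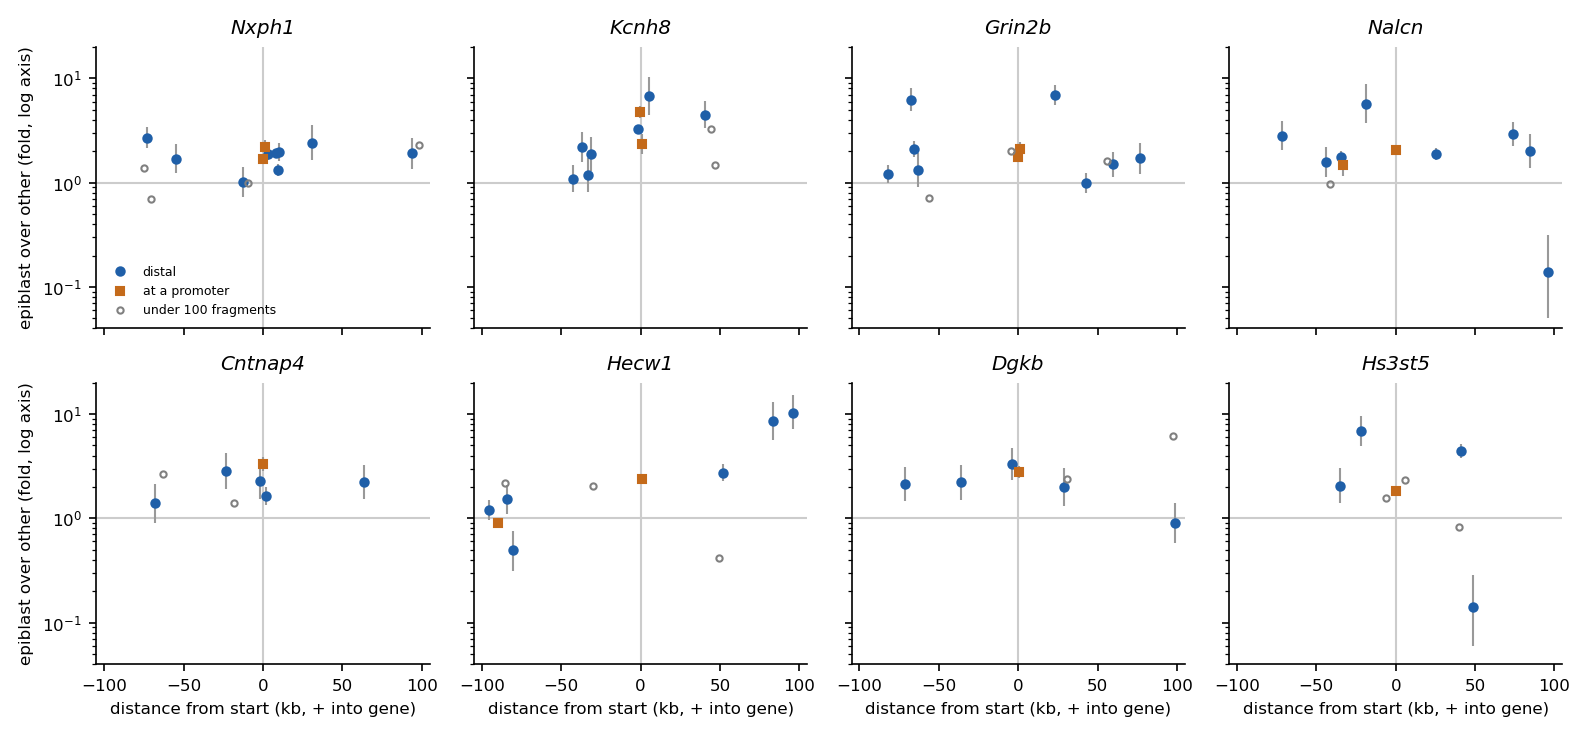
Fold of epiblast-like over other nuclei (log axis) for peaks within 100 kb of each start, by distance from the start in kb with positive values inside the gene; squares are peaks at a promoter, filled circles distal peaks, open circles peaks under 100 fragments, lines 95% counting intervals. Most points lie above 1, with the highest for Hecw1 at 10.3 and 8.50 and single low points for Nalcn and Hs3st5 at 0.140.

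Relatives of the 8 genes did not all follow. The counts below are to be read against 8.67% of all genes at least 2-fold higher and 12.9% at least 2-fold lower. Of the other potassium channels of the Kcnh8 family 4 of 6 tested were at least 2-fold higher in epiblast-like nuclei (median log2 fold 1.75, against -0.05 over all genes), with Kcnh5 highest at 4.98-fold, while Kcnh7 was lower, at 19.4 against 80.9 CPM. Of the NALCN channel complex 2 of 3 were higher: Unc79 3.60-fold and Fam155a 3.21-fold, both channel partners, with Unc80 at 1.76. Of the other NMDA receptor subunits 1 of 6 was higher, Grin2a at 6.36-fold, and 1 lower, Grin2c at 0.118. Among neurexophilins and neurexins, the ligand and receptor family of Nxph1, 1 of 4 was higher, Nrxn2 at 5.16-fold, and Nxph4 was lower, at 0.264. Of contactin-associated proteins 2 of 6 were higher, with Cntnap5a highest at 3.13-fold and Cntnap1 lowest at 0.684.

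Among the enzyme families, 1 of 9 diacylglycerol kinases was higher, Dgki at 8.95-fold, and 2 were lower, Dgkk most, at 12.2 against 70.1 CPM. Of NEDD4-like ligases 1 of 8 was higher, Hecw2, the nearest relative of Hecw1, at 3.05-fold, and Smurf1 was lowest at 0.774. Both shares are near those of all genes. Of heparan sulfate 3-O-sulfotransferases 1 of 6 was higher, Hs3st4 at 4.08-fold, and 3 were lower (median log2 fold -1.33), with Hs3st3b1 at 4.61 CPM in epiblast-like and 71.2 in other nuclei. A list of 56 other long neuronal genes held 34 at least 2-fold higher and 2 lower (median log2 fold 1.22), where 27.0% of genes of 250 kb or more were higher and 13.4% lower, from Sorcs1 at 6.75-fold to Nrg1 at 0.318. Of 11 neuron markers tested 7 were higher, led by the RNA-binding protein gene Elavl3 at 131.8 against 13.2 CPM, and Rbfox3, a marker of mature neurons, had a fold of 0.762. Some genes, Cntnap5a and Grin2a among them, are in 2 of these lists, which were drawn up with earlier results of these data known.

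Over 17 accessibility clusters the 8 genes had similar profiles, with Pearson correlations of log2(CPM + 1) from 0.862 (Nxph1 with Dgkb) to 0.979 (Grin2b with Nalcn). The clusters share 1 library, and the genes were chosen for this profile, so these values are a description. The most similar other gene was Spock2 for Kcnh8 and Hs3st5 (0.98 each), Anks1b for Nxph1 (0.95) and Cntnap4 (0.97), Cdh9 for Grin2b, Adgrv1 for Nalcn, Miat for Hecw1 and Jph4 for Dgkb (0.98 each). Next in order came Acsl4 and Dgki for Nxph1, Mcf2 and Frmd5 for Kcnh8, Jph4 and Miat for Grin2b, and Mmp25 and Miat for Nalcn. For Cntnap4 they were Gria1 and Miat, for Hecw1 Kif1a, for Dgkb Myt1l and Mcf2, and for Hs3st5 Samd12 and Mcf2.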

How the data were processed

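The 8 genes and all gene lists were chosen with earlier results of these data known. The deposited values were whole-number counts: UMI counts per gene and cut-site counts per peak in one matrix, written by cellranger-arc 2.0.0 per the file headers, with build mm10 per the submitters' processing notes. The peak caller and any further filter on barcodes are not stated in these sources. In 15341 barcodes, all shared by both libraries, there were 182201512 UMIs and 273131304 peak counts. Among nonzero values of the accessibility part 86.4% were even, as left by counting both fragment ends, so intervals on accessibility came from fragments estimated as the count divided by 2 and rounded up.

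Nuclei with under 1000 UMIs, 500 genes or 1000 peak counts, or over 20% mitochondrial UMIs, were left out, and 1154 doublet calls (Scrublet in scanpy 1.11.5, expected rate 0.1) were removed. RNA (2000 variable genes, 30 components, without the 8 genes) and peaks (TF-IDF, without the 85 peaks) were clustered apart with leidenalg 0.10.2 at resolution 1. The rule that turns marker scores into cluster names was set after the data were seen: the leading list needed a mean log2 ratio of 0.5 and at least 3 markers raised 1.5-fold, no other list of the conceptus could hold more markers among the 10 leading genes, and neuron, decidua, immune and goblet lists gave no names. Levels (CPM) are counts scaled to the total of a class. Folds printed for single genes, promoters and peaks in the main setting are plain ratios. The folds of all features behind the shares add 0.5 counts. Genes needed 50 UMIs, and called means 2-fold. Intervals are exact (Poisson, conditional ratio, Clopper-Pearson). The fold and its interval were run on simulated Poisson counts with known folds. These hold no spread between nuclei and no misplaced nuclei, so the run checks the calculation only. Its bound on interval coverage was changed after a first run missed it. Strand came from RefSeq GRCm38.p6. Besides the 8 genes, the text names the highest and lowest gene of each list, the 3 most similar genes, and the promoter peaks and 2 highest peaks of each gene. A gene that this rule would name is not reported here. The 3 low peaks, the marker genes given for the class, and single list genes beyond that rule, were chosen after their values were seen. Alternatives covered clustering, filters, doublets, windows and scaling. Python 3.11.15, numpy 2.4.6, scipy 1.17.1 and pandas 2.3.3 were used.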

Additional observations from a re-analysis of the deposited data

How the results depend on the processing

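All 8 genes stayed at least 2-fold higher in epiblast-like than in all other nuclei under each alternative for which this fold was computed. They were chosen for high RNA there, so nothing is read from this count. Some orders among the other classes did turn with RNA classes: visceral endoderm went from above mesoderm (128.8 and 16.8 CPM) to below it (6.51 and 13.7), and Cntnap4 from streak above anterior streak (4.63 and 4.18, overlapping) to about level (6.79 and 6.86). The single folds moved more: with doublet calls kept they were 6.92 to 9.70 in place of 8.89 to 19.2, Dgkb became 13.5 at resolution 0.5, and Cntnap4 8.50 with a pseudocount of 1 CPM. Without the 1% of nuclei with most UMIs of the gene, Nxph1 fell to 21.4 CPM in epiblast-like nuclei and Cntnap4 to 14.0. The summed level of 559.9 CPM became 573.1 with RNA classes, 450.1 at resolution 0.5, 536.2 with doublet calls kept and 435.2 without the 1% of nuclei with most UMIs of each gene. The share of all genes at least 2-fold higher went from 8.67 to 14.2% with no UMI minimum. The number of the 8 genes above the median gene went from 8 to 0 when levels were taken per kb of span. Promoters at least 2-fold more accessible numbered 4 of 7, and 5 of 8 with windows of 2000 bp to each side, which take in a peak for Hecw1. The largest promoter folds moved over the alternatives, from 3.56 to 5.38 for Kcnh8, 2.52 to 3.37 for Cntnap4 and 2.77 to 3.19 for Dgkb. The naming rule matters most, and its versions were added after seeing the data. Counting epiblast and anterior ectoderm as rivals left 2026 epiblast-like nuclei by accessibility (597.9 CPM) and 0 by RNA. Letting the neuron and other outside lists also give names left 0 nuclei called epiblast-like in either assay, with the 1560 nuclei of the RNA cluster highest in the 8 genes named neuron, so no fold could be given. Limits of 500 or 1000 UMIs for leading genes left the 3592 nuclei as they were. RNA and accessibility come from the same nuclei, but each assay has 1 library, so no comparison over replicates was possible and no test was run. Depth limits the low classes most: several levels outside epiblast and streak rest on fewer than 20 UMIs.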
